A study of Homo sapiens with 17 samples.

Results

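Editing by RPS2-STAMP over Control-STAMP was examined in the Input, the RNA taken from crosslinked HEK293T lysate before any immunoprecipitation. The study describes the material of these immunoprecipitations and their input as cytoplasmic, while the sample labels name no fractionation, so TPM and EPKM of nuclear RNAs may be those of a cytoplasmic extract. The members are the genes of the deposited normalized editing table with an average Input TPM (an abundance corrected for transcript length and sequencing depth) of at least 5, which gave 9132 of the 18869 genes in the table. Of the others, 7773 had a TPM below 5 and 1964 had no TPM. HEK293T is an established embryonic kidney line, and the cells carried lentiviral insertions of a doxycycline-inducible construct for APOBEC1, a cytidine deaminase that turns C into U, either joined to the small-subunit ribosomal protein RPS2 (RPS2-STAMP) or alone (Control-STAMP). Both lines were induced with 50 ng/ml doxycycline for 24 h and crosslinked with 0.1% formaldehyde. The Input has 3 RPS2-STAMP and 3 Control-STAMP samples, and the IP with an antibody to PABPC, the cytoplasmic poly(A)-binding protein, has 3 and 2. The IP with an antibody to PABPN, the nuclear poly(A)-binding protein, has 3 of each. The table holds only 1 value per gene and fraction, pooled over the replicates, so no value below has an SD or a p-value, the read depth behind it is unknown, and every fold is a description of these pooled values.

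In Ribo-STAMP the tethered enzyme converts cytosines near the ribosome to uracil, and the edits are read as C-to-T changes in RNA-seq. The small subunit contacts an mRNA during scanning and during elongation, so edits build up on RNAs that ribosomes engage while the fusion is expressed. Edits are counted per gene as EPKM (edits scaled to transcript length and to the number of mapped reads). Because EPKM is not divided by the abundance of the RNA, an abundant mRNA can collect more edits than a rare mRNA with the same ribosome load.

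HEK293T markers were checked first. VIM, the intermediate filament vimentin, had a TPM of 184, the brain-type creatine kinase CKB had 971, the oncofetal RNA-binding proteins IGF2BP1 and LIN28B had 106 and 37.7, and the neurofilament genes NEFL and NEFM had 26.9 and 9.0. The renal transcription factor genes PAX2 (0.797) and LHX1 (0.913) were low. COL1A1, a fibroblast collagen, had a TPM of 1.90, and ALB, PTPRC, CD3E, MYH7, INS, GFAP and PECAM1 had no entry. At the TPM limit, PTPRK (TPM 5.00005, EPKM 0.00329), LINC00630 (TPM 5.00359, EPKM 0.00372) and DNMT3A (TPM 5.00373, EPKM listed at 0) were just inside. STK11IP (TPM 4.99956, EPKM listed at 0), PKD1P6 (TPM 4.99716, EPKM 0.0294) and SHPRH (TPM 4.99708, EPKM 0.0203) were just outside.

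Editing above the control line was widespread and shallow. EPKM was above 0 for 7179 of the 9132 genes (78.6%) and listed at 0 for 1953 (21.4%). The median gene had 0.0318 EPKM, with quartiles of 0.00442 and 0.0816, and the 99th percentile was 0.594. Only 20 genes reached 1 EPKM, and the 100 highest genes held 13.5% of all EPKM summed over genes. No value in the table was negative, and how a gene with more editing in Control-STAMP than in RPS2-STAMP was written is not given in the sources used here, so a listed 0 may mean no edits or no excess over the control. In bulk RNA, fewer cells with an RNA and less of it per cell cannot be told apart.

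The level followed abundance. Across the 9132 genes, the Spearman correlation of EPKM with Input TPM was 0.499 (a description across genes, which share libraries). With the genes ordered by TPM and divided into 10 equal sets, the lowest set (median TPM 5.74) had a median of 0.0101 EPKM with 31.2% listed at 0, and the highest set (median TPM 146) had 0.178 EPKM with 10.2% listed at 0. Divided by abundance, the median per set was 1.73 EPKM per 1000 TPM in the lowest set, 1.57 to 1.92 in the 8 sets between and 1.04 in the highest. Each gene was therefore also set against its equals: relative editing is the log2 of its EPKM over the median EPKM of the 200 genes nearest in Input TPM, after adding 0.01 EPKM to both. A gene is called high at 2-fold or more above that median and low at 2-fold or more below it. Of the 9132 genes, 1613 (17.7%) were high and 2472 (27.1%) were low. A low call could be reached only by the 8457 genes whose like-TPM median was at least 0.01 EPKM. The 201 genes with the highest TPM (321.9 or more) were compared with nearly the same set, which held 53 cytosolic ribosomal protein genes, 31 replication-dependent histone genes and 12 mitochondrially encoded genes, with 24 of the 201 listed at 0.

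**Figure D1:**
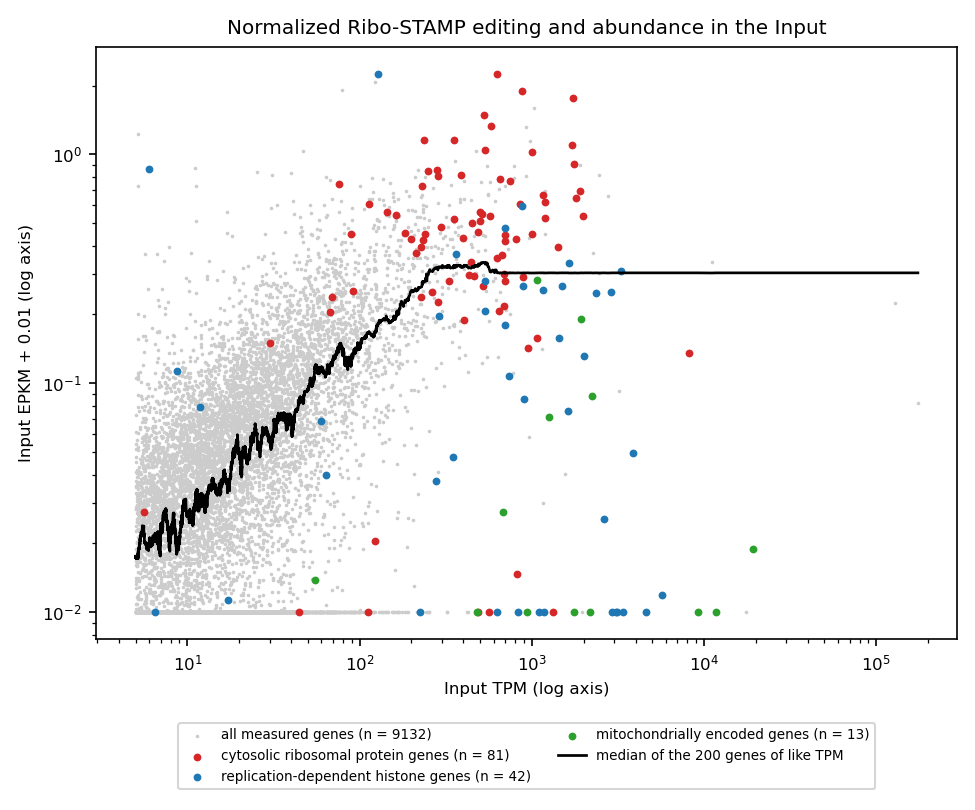
Input EPKM plus 0.01 (log axis) against Input TPM (log axis) for the 9132 measured genes, 1 pooled value per gene, with the median of the 200 genes nearest in TPM as a black line. Ribosomal protein genes (red, 81) lie mostly on or above the line, mitochondrially encoded genes (green, 13) lie below it, and histone genes (blue, 42) are spread from the top of the plot to the floor, where genes listed at 0 EPKM sit at 0.01.

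RPS2 is the ribosomal protein in the fusion, and reads of the construct and of the gene (chr16:1962058-1964841, 7 exons, hg38) cannot be told apart here. It had a TPM of 8171, the highest of any ribosomal protein gene, and 0.126 EPKM, which puts its relative editing at -1.16. In the IPs it had 0.101 EPKM (PABPC) and 0.447 EPKM (PABPN). Its processed pseudogene RPS2P5 had a TPM of 3191 and 0.0828 EPKM, and the division of reads and edits between these copies is uncertain. APOBEC1 had no entry of its own.

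Genes for proteins of the ribosome made up most of the top of the absolute order. RPL12, a protein of the large-subunit stalk base, was first with 2.24 EPKM at a TPM of 628, which is 2.89 above like-TPM genes on the log2 scale. RPS21 followed among ribosomal protein genes with 1.89 EPKM at a TPM of 879, and RPSA, the small-subunit protein also known as the laminin receptor, with 1.75 EPKM at a TPM of 1728. RPLP1, an acidic stalk protein, had 1.32, RPS15A had 1.15, RPS25 had 1.15 and RPL8 had 1.09. Of the 15 genes with the highest EPKM, 7 are no ribosomal protein genes, namely H4C11, MIR1244-2, LYPLA2, UBB, TMSB10, CKB and a processed pseudogene.

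Of these 7, some also had EPKM above 0 in the IPs and others were listed at 0 there. UBB, a polyubiquitin gene, had 1.59 EPKM in the Input, against 0.535 with PABPC and 0.361 with PABPN. TMSB10, which encodes an actin-sequestering thymosin, had 1.31, 0.184 and 0.0935 EPKM in the same order. CKB had 1.13 and 0.644 EPKM in the Input and the PABPC IP and was listed at 0 in the PABPN IP. LYPLA2, a lysophospholipase that removes palmitate from proteins, had 1.89 EPKM in the Input at a TPM of 79.5 and was listed at 0 in both IPs, although its TPM there was 199 and 117. The processed pseudogene ENSG00000185641 (chr5:116051917-116052289, antisense within ARL14EPL) had 1.22 EPKM in the Input at a TPM of 5.18 and was also listed at 0 in both IPs. With no replicate value, an Input value that neither IP shares has nothing in these files to check it against.

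MIR1244-2, the third by EPKM, shows how copies limit such a value. The table listed this 85-base hairpin (chr5:118974586-118974670) at 2.05 EPKM and a TPM of 122, and in the IPs at 0.472 (PABPC) and 0.540 (PABPN). RefSeq (GRCh38.p14) holds 4 MIR1244 hairpins, and all 4 are identical over their 85 bases. MIR1244-1 lies on the same strand within the 3′ untranslated part of the last exon of PTMA, which encodes the abundant acidic nuclear protein prothymosin. PTMA had a TPM of 486 and 0.367 EPKM. The mature sequence, the same in each copy, is shown with the seed (bases 2 to 8) in capitals.
hsa-miR-1244: aAGUAGUUgguuuguaugagaugguu
Whether reads were assigned to this hairpin, to a copy or to the PTMA mRNA by their flanks was not tested.

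**Figure D2:**
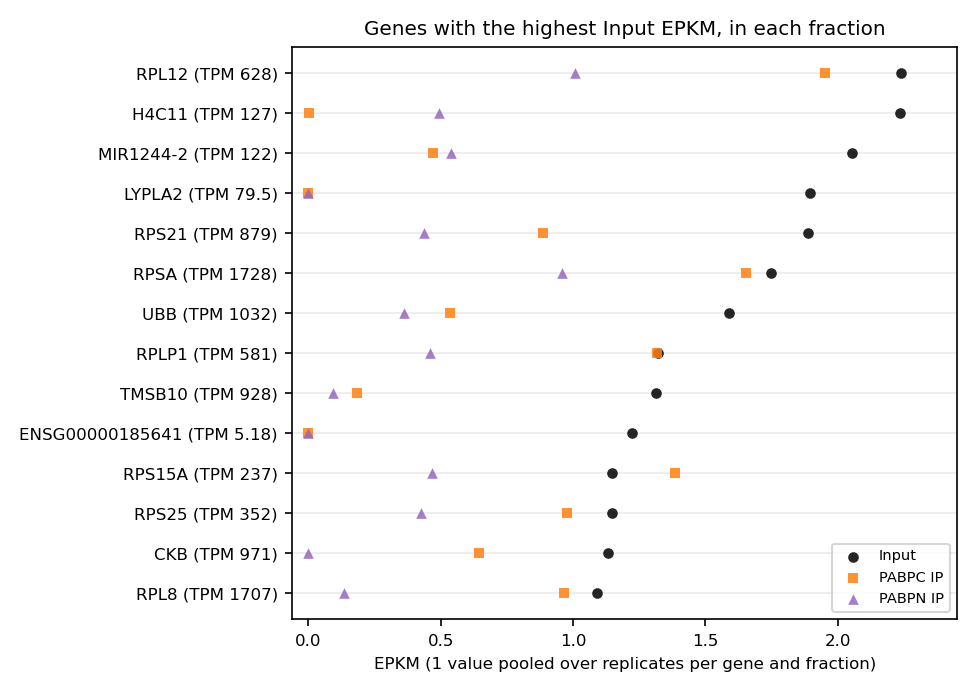
EPKM (horizontal axis, 1 pooled value per gene and fraction) of genes among the 15 with the highest Input EPKM, in the Input (black circles), the PABPC IP (orange squares) and the PABPN IP (purple triangles), with the Input TPM beside each name. RPL12 and RPSA have 1.95 and 1.65 EPKM in the PABPC IP, where their TPM is higher than in the Input (2142 and 5493). LYPLA2 and ENSG00000185641 are at 0 in both IPs.

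Relative to genes of like TPM, the highest protein-coding genes were a different set. H4C12, a histone H4 gene, was first with 0.858 EPKM at a TPM of 6.01, or 5.39 on the log2 scale. TMSB4X, which encodes thymosin beta-4, had 0.860 EPKM at a TPM of 11 (4.91). TNNT1, the slow skeletal troponin T, had 0.385 EPKM at a TPM of 7.87 (4.32) and 0.725 EPKM in the PABPC IP, but was listed at 0 in the PABPN IP. LYPLA2 (3.85) and H4C11 (3.66) reappeared here from the absolute list. DCK, the deoxycytidine kinase of nucleoside salvage, had 0.80 EPKM at a TPM of 31.1 (3.85) and RRAGB, a Rag GTPase of amino acid sensing, had 0.248 EPKM at a TPM of 5.93 (3.75). Both were listed at 0 in both IPs. CFD, the complement protease factor D (0.443 EPKM, 3.63), DDTL, a close copy of D-dopachrome tautomerase DDT (0.216 EPKM, 3.46), and CHPT1, a choline phosphotransferase of phosphatidylcholine synthesis (0.575 EPKM, 3.42), completed the 10. In 6 of these 10 genes the TPM was below 20, where a like-TPM median of 0.00921 to 0.0267 EPKM makes a large log2 value easy to reach. TMSB4X, DDTL, H4C11 and H4C12 have close copies elsewhere in the genome, so their EPKM and their TPM may each hold or lack reads of a copy.

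At the other end, abundant genes were listed at 0. The 15 with the highest TPM were 5 mitochondrially encoded genes (MT-CO3, TPM 11770; MT-CO2, 9241; MT-CYB, 2170; MT-ND3, 1768; MT-ND2, 932), 7 replication-dependent histone genes (H2BC12, H2AC12, H4C3, H1-4, H4C4, H2AC7 and H2AC11, TPM 1101 to 4605), the lncRNA ENSG00000282885 (TPM 17600), ACTG1 and RPLP0. ENSG00000282885 overlaps the 7SL copy RN7SL2 on its own strand. ACTG1, the cytoplasmic gamma-actin, was listed at 0 at a TPM of 1967, while ACTB, the beta-actin with a nearly identical protein, had 0.889 EPKM at a TPM of 1891. Both were edited in the IPs, with ACTG1 at 0.151 and ACTB at 1.09 EPKM with PABPC, and at 0.0482 and 0.661 EPKM with PABPN. RPLP0, the stalk protein that holds RPLP1, was listed at 0 in the Input and the PABPN IP and had 0.312 EPKM in the PABPC IP.

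Among protein-coding genes with EPKM above 0, the lowest relative values were those of H2AC17 (0.00187 EPKM, -4.68), RPL32 (0.00466, -4.37) and MT-CO1 (0.00899, -4.0). BAP1, a nuclear deubiquitinase and tumour suppressor, had 0.000265 EPKM at a TPM of 101.1 (-3.82). POLDIP2, a polymerase delta-interacting protein, had 0.00532 EPKM at a TPM of 160 (-3.66). PPIF, the mitochondrial cyclophilin, had 0.00928 EPKM at a TPM of 188 (-3.58). H4C2 (0.0155 EPKM, -3.57), NOP56, a core protein of box C/D snoRNPs and host of several snoRNAs (0.00248 EPKM, -3.54), MT-ND4L (0.0176 EPKM, -3.46) and the G protein-coupled receptor kinase GRK6 (0.00297 EPKM, -3.40) followed. In the PABPC IP, BAP1, POLDIP2 and GRK6 had an EPKM of 0.0965, 0.162 and 0.131, within 2-fold of genes of like TPM there (-0.32, 0.14 and 0.13). In the PABPN IP they were low, as in the Input, with BAP1 (-2.55) and POLDIP2 (-3.09) listed at 0 and GRK6 at 0.00516 EPKM (-1.97). RPL32, MT-CO1 and MT-ND4L were listed at 0 in both IPs.

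Cytosolic ribosomal protein genes were the most edited large family in absolute terms, with wide differences between members. All 33 small-subunit genes were measured, with a median of 0.517 EPKM and a median relative editing of 0.96. Of these 33, 15 were high, 2 were low and 1 was listed at 0. All 48 large-subunit genes were measured too, with a median of 0.420 EPKM and a relative median of 0.59, and 14 were high, 7 low and 4 listed at 0. Over all 9132 genes the relative median was -0.01, with 17.7% high and 27.1% low. For the small subunit the top members were RPS21 (2.64) and RPSA (2.53), and the bottom were RPS2 (-1.16) and RPS10 (listed at 0, -4.99). RPL12 (2.89) and RPL36A (0.729 EPKM, 2.32) led the large subunit, and RPLP0 (-4.93) and RPL39 (listed at 0, -5.06) were lowest. RPS10 and RPL39, at 0 in the Input, had 1.07 and 0.657 EPKM in the PABPC IP and 0.376 and 0.254 EPKM in the PABPN IP, whereas RPL32 was at or near 0 in every fraction. Nearly every ribosomal protein gene has processed pseudogenes, so these values are uncertain where reads map to a copy. The position of the family above like-TPM genes also depends on the scale, since dividing EPKM by TPM gave it a median below that of all genes (-1.09 for the small and -1.19 for the large subunit).

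Ribosomal protein mRNAs begin with a 5′ terminal oligopyrimidine (TOP) tract, a C followed by C or T, through which mTORC1 and LARP1 control their translation. A C within 5 bases of the annotated start that was followed by at least 4 more C or T was looked for on the transcribed strand of the RefSeq promoters (GRCh38.p14). It was present at 7408 of 35116 promoters (21.1%), at 29.5% of the 7115 measured protein-coding genes with a promoter entry (any entry of a gene counted), and at 55 of 65 ribosomal protein genes (84.6%). The 30 bases around the start are shown for the 3 ribosomal protein genes with the highest relative editing and for 4 with the lowest, 10 bases before and 20 from the start, with the tract in capitals. For RPL32, which has 3 promoter entries, the first with a tract is shown.
RPL12: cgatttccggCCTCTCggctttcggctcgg
RPS21: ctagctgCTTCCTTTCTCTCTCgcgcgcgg
RPSA: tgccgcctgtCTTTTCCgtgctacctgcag
RPL32: acgacccatcagCCCTTgcgcgccaccgtc
RPLP0: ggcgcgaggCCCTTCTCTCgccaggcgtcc
RPS10: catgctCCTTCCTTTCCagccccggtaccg
RPL39: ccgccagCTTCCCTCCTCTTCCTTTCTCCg
The windows lie at chr9:127451387-127451416 (RPL12, minus strand), chr20:62387093-62387122 (RPS21, plus), chr3:39406710-39406739 (RPSA, plus), chr3:12841546-12841575 (RPL32, minus), chr12:120201092-120201121 (RPLP0, minus), chr6:34426050-34426079 (RPS10, minus) and chrX:119791611-119791640 (RPL39, minus). Tracts of 6, 15 and 7 bases stood at the starts of the 3 most edited genes and of 5, 10, 11 and 22 bases at those of the 4 least edited. Both sets therefore held the tract. Ribosomal protein genes with it had a relative median of 0.60 and those without it 0.67. Outside the family, it was found at 29.3% of high genes and 29.1% of low genes. The 24 measured members of a list of other known TOP mRNAs had a relative median of 0.04 (-1.18 when EPKM was divided by TPM). The other alternatives gave medians from 0.023 to 0.63. Of the 24, 1 was high (4.17%, against 17.7% over all genes) and 4 were low (16.7%, against 27.1%). That list ran from EIF3E, an initiation factor subunit (0.338 EPKM, 1.12), and NACA, the nascent polypeptide-associated chaperone (0.216 EPKM, 0.84), down to the elongation factor subunits EEF1G (0.0303 EPKM, -2.92) and EEF1D (listed at 0, -3.36).

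Other parts of the translation machinery had relative medians from 0.33 to -0.50, with counts to be set against 17.7% high and 27.1% low over all genes. The 11 elongation and release factor genes had a relative median of 0.33, none high and 2 low. That median turned to -0.042 with GC matching and -1.24 when EPKM was divided by TPM. EEF1E1 (0.62) and EIF5A (0.440 EPKM, 0.57) were on top and EEF1G and EEF1D, as above, at the bottom. EEF1A1, which delivers aminoacyl-tRNA, had 0.294 EPKM at a TPM of 2454, and EEF2, the translocase, had 0.361 EPKM at a TPM of 2257. The 48 initiation factor genes had a relative median of -0.09 (0.088 with length matching) with 4 high (8.33%) and 10 low (20.8%), from EIF2B1 (0.546 EPKM, 2.47) and EIF1AX (0.594 EPKM, 1.67) to EIF3J and EIF1B (both listed at 0, -2.84 and -3.53). Aminoacyl-tRNA synthetase genes had a relative median of -0.35, with 1 of 36 high (VARS1, 0.225 EPKM, 1.09) and 12 low. WARS1 (-3.16) and FARSA (-4.24), both listed at 0, were lowest. The 54 measured ribosome biogenesis genes had a relative median of -0.50, with 3 high and 18 low. Its leading members NOP9 (0.208 EPKM, 2.16) and UTP25 (0.0888 EPKM, 1.63) stood against NOP14 and RRP36, both listed at 0 (-3.56 and -3.85). All 8 subunits of the CCT chaperonin, which folds actin and tubulin, were within 2-fold of like-TPM genes, from CCT8 (0.352 EPKM, 0.93) and CCT6A (0.06) to CCT2 (-0.47) and CCT5 (0.0915 EPKM, -0.67). Their median of -0.27 was 0.27 with length matching and -1.09 when EPKM was divided by TPM.

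Nuclear and mitochondrial genes for the respiratory chain lay on opposite sides of genes of like TPM. Nuclear genes for oxidative phosphorylation subunits had a median of 0.165 EPKM and a relative median of 0.55, with 30 of 79 high (38%, against 17.7% over all genes) and 10 low (12.7%, against 27.1%). NDUFB5 (0.176 EPKM, 2.71) and NDUFA12 (0.326 EPKM, 2.32) of complex I led this list, and NDUFS5 (-3.61) and NDUFA7 (-4.05) of the same complex were listed at 0. NDUFA7 had 1.04 EPKM in the PABPC IP. Of the 13 genes that mitochondrial DNA encodes, which are translated inside the organelle by a separate ribosome, none was high, 11 were low and 6 were listed at 0. Their median was 0.00390 EPKM at a median TPM of 1768, or -4.0 in relative terms. MT-ATP8 (0.273 EPKM, -0.10) and MT-ATP6 (0.182 EPKM, -0.66) stood apart from the rest, and MT-CO3 (-4.93) and MT-ND5 (listed at 0, -5.04) were lowest. MT-ATP8, MT-ATP6 and MT-ND4 (0.0779 EPKM) were listed at 0 in both IPs. The 76 mitochondrial ribosomal protein genes, encoded in the nucleus, had a relative median of -0.26, with 6 high and 28 low. In that list MRPL42 (0.172 EPKM, 1.39) and MRPL50 (0.0983 EPKM, 1.26) were highest, and MRPL14 (-4.22) and MRPS26 (-4.54) were listed at 0, the former with 1.45 EPKM in the PABPC IP.

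Replication-dependent histone genes, whose mRNAs end in a stem-loop in place of a poly(A) tail, combined very high TPM with mostly low editing. Of 42 measured genes (median TPM 884), 4 were high (9.52%, against 17.7% over all genes), 22 were low (52.4%, against 27.1%) and 11 were listed at 0, with a median of 0.0723 EPKM and a relative median of -1.16. The 8 H4 genes, which code for the same protein from similar sequences, spanned the whole range. H4C11 had 2.23 EPKM at a TPM of 127 and H4C12 had 0.858 EPKM at a TPM of 6.01, while H4C3 and H4C4 were listed at 0 at TPMs of 3128 and 2916. H4C1 had 0.585 EPKM (0.97), H4C5 0.187 EPKM (-0.72), H4C8 0.0379 EPKM (-2.74) and H4C2 0.0155 EPKM (-3.57). The H4 genes with a TPM above 2000 were therefore the least edited of the 8. In the PABPC IP the order was another, with 0.883 EPKM for H4C2 and 0.00234 EPKM for H4C11. Of 13 H2A genes 1 was high and 7 were low, of 11 H2B genes none was high and 5 were low, of 7 H3 genes 1 was high and 4 were low, and of 3 H1 genes none was high and 2 were low. H2AC15 (listed at 0 at a TPM of 627, -4.94) was lowest, ahead of H4C4 and the others listed at 0 at a higher TPM (-4.93). Reads of such copies cannot be assigned with certainty, so the differences between single histone genes are uncertain. The 11 histone variant genes with poly(A) tails had a relative median of 0.47 (-0.84 when EPKM was divided by TPM), with 3 high and 3 low, from H3-3A (0.443 EPKM, 1.74) to CENPA, the centromeric H3 (0.0288 EPKM, -1.58), and MACROH2A2 (listed at 0, -3.70).

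**Figure D3:**
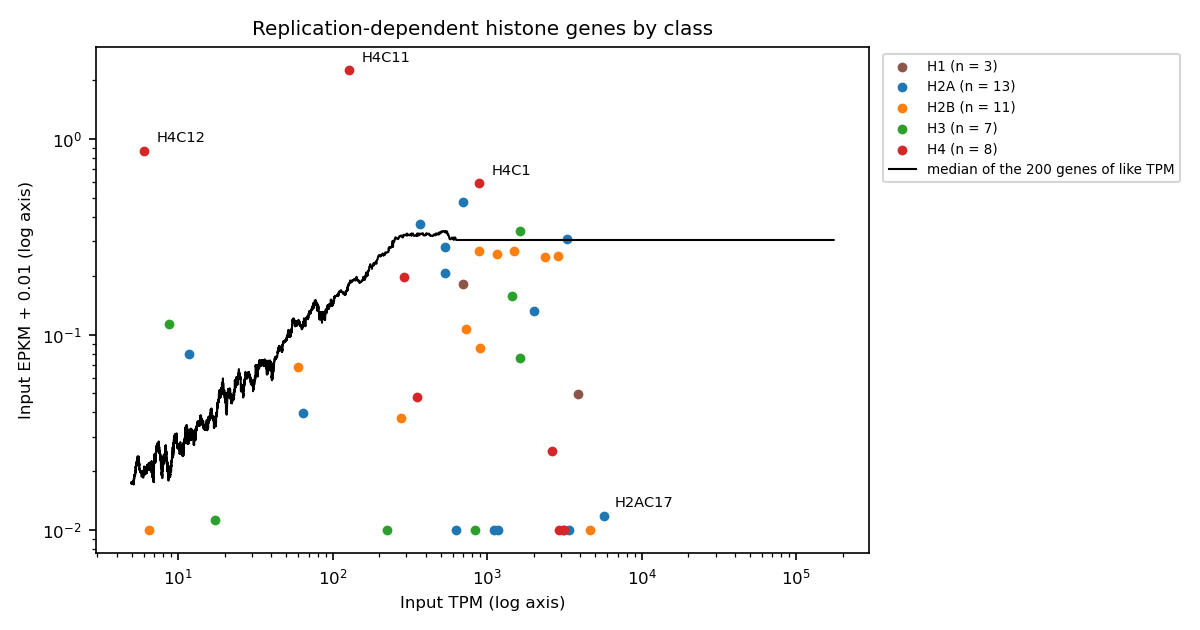
Input EPKM plus 0.01 (log axis) against Input TPM (log axis) for the 42 replication-dependent histone genes, coloured by class, 1 pooled value per gene, with the like-TPM median of all genes as a line. H4C11 and H4C12 lie far above the line, most genes with a TPM over 1000 lie below it, and genes listed at 0 EPKM sit at 0.01.

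Among lists for other cell functions, actin-related genes and the secretory entry route had relative medians above 0, while that of the 12 tubulin genes was 0.02, with 2 high and 2 low (16.7% each). Actin and actin-binding protein genes had a relative median of 0.55 with 11 of 33 high (33.3%) and 4 low (12.1%). TMSB4X (4.91) and TMSB10 (2.13, but -0.60 when EPKM was divided by TPM) were highest, and CFL1, the actin-severing cofilin (0.0227 EPKM at a TPM of 218, -2.98), and ACTG1 (-4.93) were lowest. ACTB (1.57), the profilin gene PFN1 (1.04 EPKM, 1.79) and the myosin light chain genes MYL12B (0.464 EPKM, 2.05) and MYL12A (0.217 EPKM, 1.89) were high as well. Genes for translocation into the endoplasmic reticulum and N-glycosylation had a relative median of 0.67 with 16 of 44 high (36.4%) and 4 low (9.09%). The signal peptidase subunit SPCS2 (0.258 EPKM, 2.24) and the signal recognition particle protein SRP14 (0.435 EPKM, 2.19) led, and SSR1 (0.000268 EPKM, -2.83) and DAD1 (listed at 0 at a TPM of 252, -4.94) were lowest. The core spliceosome list had a relative median of 0.40 with 9 of 39 high (23.1%, against 17.7% over all genes) and 6 low (15.4%, against 27.1%), from PRPF4 (0.404 EPKM, 2.35) and SNRPF (0.101 EPKM, 1.72) to SF3A2 and SF3B5, both listed at 0 (-3.82 and -5.03).

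Several other lists, that of short-lived mRNAs among them, had relative medians below 0. Their counts are to be read against 17.7% high and 27.1% low over all genes. Of 24 immediate early and other short-lived mRNAs, 2 were high, 13 were low and 10 were listed at 0, with a relative median of -1.38. That median was -0.43 at a minimum TPM of 1, -0.23 with a pseudocount of 0.1 EPKM and -2.21 with 0.001 EPKM. The kinase gene PIM1 (0.134 EPKM, 2.14) and CCND1, cyclin D1 (0.0931 EPKM, 1.58), were the 2 high members. ID2 and ID3, inhibitors of helix-loop-helix transcription factors, were listed at 0 in all 3 fractions at Input TPMs of 129 and 191. Transcripts known for detained introns, with the CLK kinases among them, had a relative median of -1.17 (-2.62 at a minimum TPM of 20, -0.26 with a pseudocount of 0.1 EPKM and -2.28 with 0.001), with 1 of 14 high (LUC7L, 0.0657 EPKM, 1.22) and 7 low. After LUC7L came CCNL1 (0.0208 EPKM, 0.55), and the RNA-binding protein gene RBM39 and the helicase gene DDX5 were listed at 0 (-2.86 and -3.49). Numbered zinc finger genes had a relative median of -0.53, with 18 of 178 high, 68 low and 62 listed at 0. Apart from division by TPM, the alternatives gave this list medians from -0.96 to 0. ZNF524 (0.279 EPKM, 3.29) and ZNF697 (0.101 EPKM, 2.35) were highest, and ZNF593 and ZNF768, at TPMs of 153 and 147, were listed at 0. Ubiquitin-specific protease genes had a relative median of -0.60 with 2 of 36 high and 13 low, from USP33 (0.111 EPKM, 1.48) and USP7 (0.114 EPKM, 1.14) to USP18 and USP22, both listed at 0 (-2.59 and -4.37). Cholesterol synthesis and uptake genes had a relative median of -0.53 (-0.14 with a pseudocount of 0.1 EPKM), with 2 of 28 high and 9 low (32.1%), from the lanosterol synthase LSS (0.158 EPKM, 1.74) and the lysosomal cholesterol exporter NPC1 (0.0290 EPKM, 1.18) to PMVK and FDFT1, both listed at 0 (-2.85 and -2.93).

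**Figure D4:**
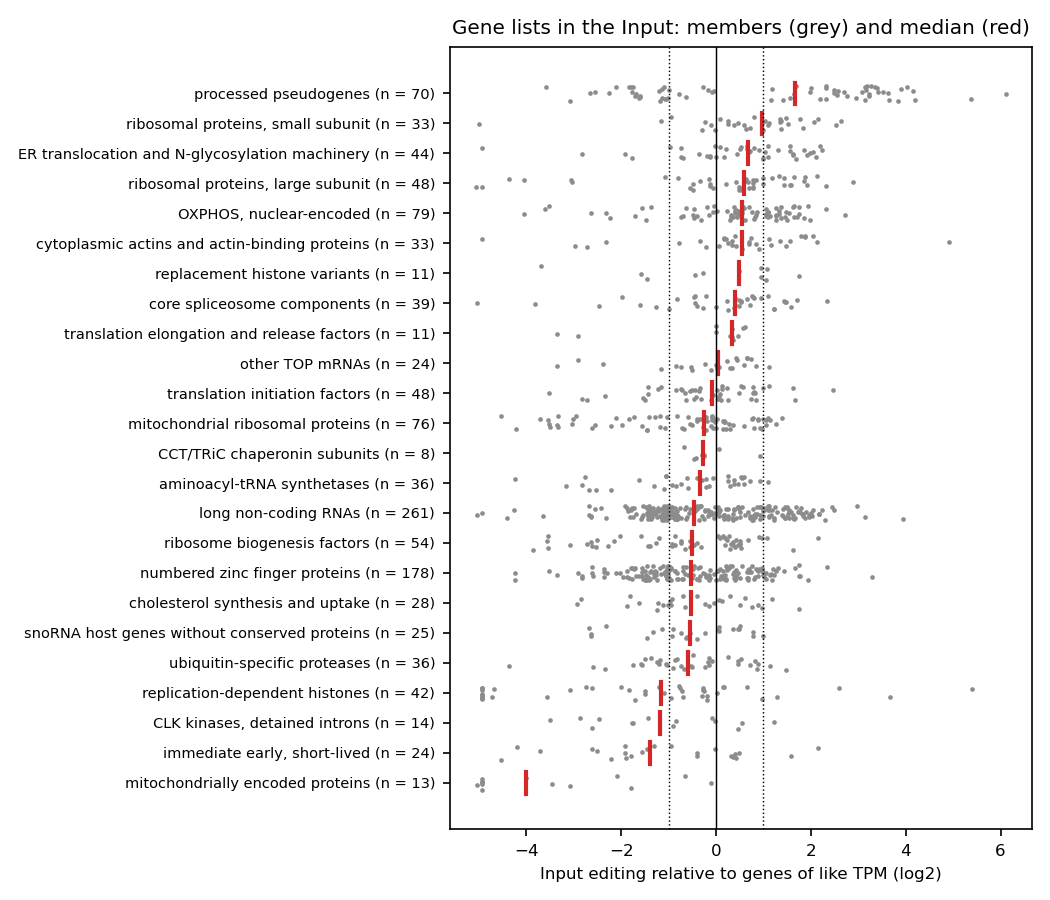
Input editing relative to genes of like TPM (log2, horizontal axis) for the members of 24 gene lists, 1 grey point per gene with a small vertical spread for visibility, and the list median in red. Dotted lines mark 2-fold above and below. At the minimum TPM of 5 the medians run from 1.67 for processed pseudogenes (-0.047 at a minimum of 20) to -4.0 for mitochondrially encoded genes, and most lists hold members on both sides of 0.

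Long non-coding RNAs ranged from listed at 0 to among the highest relative values. Of 261 measured lncRNAs, 103 were listed at 0 (21.4% over all genes), and the median was 0.010 EPKM at a median TPM of 8.23. In relative terms 57 were high (21.8%, against 17.7% of all genes) and 84 were low (32.2%, against 27.1%), with a median of -0.46. Apart from division by TPM, the alternatives gave lncRNA medians from -0.72 to 0. EP300-AS1 (0.55 EPKM, 3.93) and CYP4F26P (0.158 EPKM, 3.14) were highest. The 10 lncRNAs with the highest TPM were the 7SL-overlapping ENSG00000282885, SNHG16, TERC, SNHG29, ENSG00000279738, DANCR, VPS9D1-AS1, ENSG00000262202, ENSG00000276216 and NORAD. TERC, the telomerase RNA, was listed at 0 in all 3 fractions at an Input TPM of 420 (-5.03), as was VPS9D1-AS1 at a TPM of 170 (-4.40). NORAD, a cytoplasmic RNA that binds Pumilio proteins, had 0.225 EPKM (0.62), and the snoRNA host SNHG29 had 0.467 EPKM (0.78) with 0.454 EPKM in the PABPC IP. SNHG16 had 0.202 EPKM (-0.61), DANCR 0.220 EPKM (0.05), ENSG00000279738, which overlaps EIF3L, 0.00310 EPKM (-4.27), ENSG00000262202, which overlaps SNORD3D, 0.206 EPKM (0.20), and ENSG00000276216, which overlaps the U1 gene RNVU1-14, 0.0547 EPKM (-1.31). The relative values of SNHG29, DANCR and ENSG00000262202 turned negative when EPKM was divided by TPM, and that of ENSG00000262202 also with length matching. MALAT1, a nuclear-retained lncRNA, had 0.0880 EPKM at a TPM of 55.0. The 25 snoRNA host genes without a conserved protein had a relative median of -0.55 with none high and 7 low (28%, close to the share over all genes), from SNHG1 (0.188 EPKM, 0.98) and SNHG29 to SNHG9 and SNHG15, both listed at 0 (-2.64 and -2.67).

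Processed pseudogenes had a relative median of 1.67 at the minimum TPM of 5, which was 0 at a minimum of 1, -0.047 at 20 and 0.78 with a pseudocount of 0.1 EPKM. At the minimum of 5, 40 of 70 were high (57.1%, against 17.7% over all genes) and 23 were low (32.9%, against 27.1%). Listed at 0 were 21 of the 70, a larger share than the 21.4% of all genes. Their median was 0.136 EPKM at a TPM of 11.5. Of the 32 named for a ribosomal protein gene 23 were high and 6 low, and of the 38 others 17 were high and 17 low. RPL12P4 had 0.717 EPKM at a TPM of 5.16 (5.37), beside 2.24 EPKM for RPL12, and only ENSG00000185641 (6.10) was higher. RPL14P1 had 0.285 EPKM while RPL14 itself, at a TPM of 112, was listed at 0, and the pseudogene SNRPGP10 had 1.02 EPKM against 0.209 EPKM for SNRPG, a core snRNP protein gene. SNRPGP2 and GPX1P1 were lowest (listed at 0, -3.07 and -3.59). A processed pseudogene is an intronless copy of an mRNA, so where both are identical their reads cannot be told apart. How much of the editing comes from such reads was not tested.

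Families taken from the leading letters of gene symbols, without the lists, were ranked as well. Counts in them are to be read against 17.7% high and 27.1% low over all genes. Of 103 such families with at least 10 measured protein-coding genes, COX had the highest relative median (0.98, 10 of 20 high and 2 low). It was followed by NDUFA (0.84, 6 of 13 high and 1 low) and COMMD (0.77, 4 of 10 high and 2 low). SH (0.76, 8 of 23 high and 6 low) and RPS (0.75, 16 of 40 high and 4 low, ribosomal S6 kinase genes included) came next. COX6B1, COX7C and COX8A, subunits of cytochrome c oxidase, had 0.790, 0.786 and 0.778 EPKM, and COMMD6, COMMD8 and COMMD10, of the COMMD proteins that act in endosomal sorting, had 0.293, 0.140 and 0.0875 EPKM. At the bottom were MT (-3.46, 12 of 15 low and 1 high) and EXOSC (-2.07, 7 of 10 low and none high). Above them were KIAA (-1.11, 7 of 14 low and 1 high), PHF (-1.10, 8 of 13 low and 1 high) and SF (-0.90, 4 of 10 low and none high). The name MT also took in 2 metallothionein genes, of which MT2A had 0.431 EPKM at a TPM of 18.2 (3.29). EXOSC genes encode subunits of the RNA exosome, and 6 of the 10 were listed at 0, EXOSC5 at a TPM of 71.4 and EXOSC2 at 42.4, with EXOSC6 as the highest (0.110 EPKM, 0.69). The IPs did not all share this. EXOSC5 had 0.469 EPKM (1.91) in the PABPC IP and was listed at 0 in the PABPN IP. EXOSC2 had 0.0783 EPKM (-0.07) with PABPC and 0.144 EPKM (1.19) with PABPN. EXOSC8 was listed at 0 in all 3 fractions.

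Relative editing varied with base composition and, less, with coding length. Among protein-coding genes, the Spearman correlation of relative editing with the GC content of the canonical GENCODE transcript was -0.22 over 8635 genes. In the lowest of 10 equal sets by GC content (median 36.9%), 33.4% of genes were high and 14.1% low, and in the highest (median 64.3%), 14.5% were high and 37.7% low. With coding length the correlation was -0.093, and the share of high genes was 28.5% in the shortest of 10 sets (median 378 bases) and 10.5% in the longest (median 4284 bases), while that of low genes was 23.1% and 24.5%. With the whole transcript length it was 0.026. Each is a description across genes, which share libraries and differ in many features at once. Matching genes on GC content as well as TPM moved the relative median of the small-subunit ribosomal proteins from 0.96 to 1.43 and that of the large-subunit proteins from 0.59 to 1.03, and gave 0.75 for the nuclear oxidative phosphorylation genes and -1.18 for the short-lived mRNAs.

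**Figure D5:**
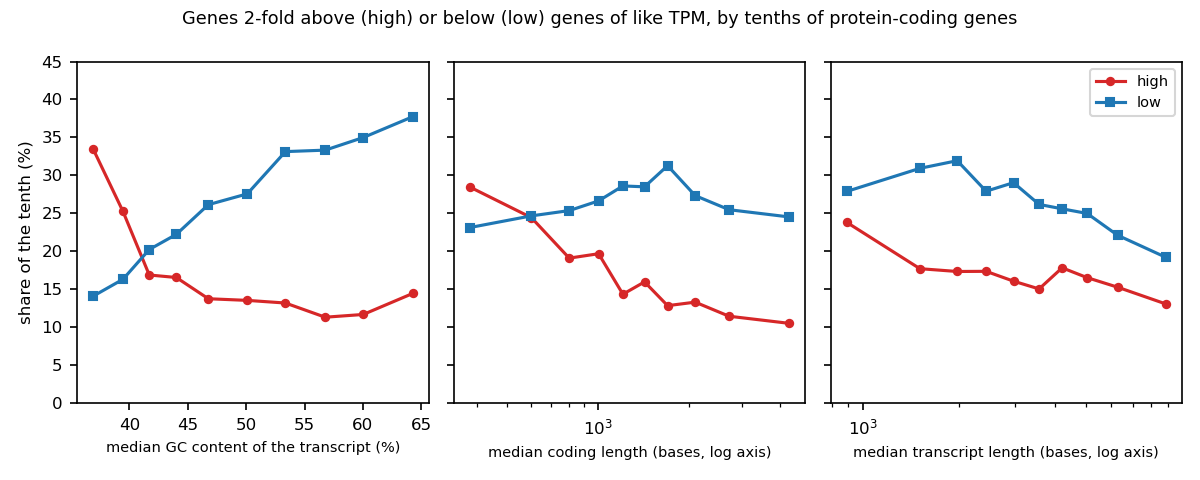
Share of protein-coding genes (%) called high (red circles) or low (blue squares) against genes of like TPM, in 10 equal sets by GC content, coding length (log axis) and transcript length (log axis), each set placed at its median. The share of high genes drops from 33.4% to 14.5% from the lowest to the highest GC set, while the share of low genes goes from 14.1% to 37.7%.

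The same genes were then read in the PABPC and PABPN IPs, each against genes of like TPM in that fraction. The study describes a divided extract for its IPs from total lysate but not for these, so whether Input and IPs of a replicate share a lysate is unknown and the fractions may not be independent. A TPM of 5 or more in the PABPC IP was reached by 9048 of the 9132, with 1227 (13.6%) high and 2535 (28%) low, and in the PABPN IP by 9118, with 2147 (23.5%) high and 3155 (34.6%) low. EPKM was listed at 0 for 17.5% of the genes with PABPC and 26.8% with PABPN. Relative editing in the Input had a Spearman correlation of 0.113 with that in the PABPC IP and 0.133 with that in the PABPN IP. Of the Input-high genes, 335 of 1598 (21.0%) were high in the PABPC IP and 523 of 1607 (32.5%) in the PABPN IP, beside 13.6% and 23.5% over all genes. In the PABPC IP more of them were low than high, 394 (24.7%, against 28% over all genes), and 470 (29.2%, against 34.6%) were low in the PABPN IP. The 100 genes with the highest Input EPKM had larger shares, 51 of 99 and 64 of 99. Of the genes listed at 0 in the Input, 1753 of 1953 had EPKM above 0 in at least 1 IP, beside 8565 of 9132 over all genes.

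Genes high in all 3 fractions numbered 157 of 9042 (1.74%), 133 of them protein-coding, and genes low in all 3 numbered 372 (4.11%), 339 of them protein-coding. The protein-coding genes at least 4-fold above genes of like TPM in every fraction included the ribosomal protein genes RPL12, RPS21, RPSA, RPLP1 and RPS15A. Outside the ribosome they were TSPAN7, a tetraspanin (0.149 EPKM in the Input, 0.222 with PABPC and 0.100 with PABPN), and YIF1B, a protein of ER to Golgi transport (0.263, 0.343 and 0.185). The ribosomal protein lists had relative medians of 1.51 (small subunit) and 0.92 (large) in the PABPC IP and of 1.29 and 0.94 in the PABPN IP. Over all genes, 13.6% were high and 28% low in the PABPC IP, and 23.5% and 34.6% in the PABPN IP. Of the 13 mitochondrially encoded genes 13 were low with PABPC and 10 with PABPN. In the PABPN IP MT-ND2 (0.816 EPKM, 3.44) and MT-ND3 (0.154 EPKM, 1.11) were high. Nuclear oxidative phosphorylation genes had 8 of 79 high and 19 low in the PABPC IP (13.6% and 28% over all genes). In the Input they had 30 and 10 (17.7% and 27.1% over all genes), a difference with no replicate test. Ubiquitin-specific protease genes (-0.60 in the Input) had relative medians of 0.29 with PABPC (8 high and 5 low) and 0.33 with PABPN (11 and 8). Cholesterol genes (-0.53) had 0.40 (7 high and 7 low) and -0.82 (4 and 13). Genes for ER translocation and N-glycosylation (0.67) had 0.09 (7 high and 12 low) and 1.16 (25 and 6). Replication-dependent histone genes had a relative median of 0.12 among the 38 with sufficient TPM in the PABPC IP (10 high and 14 low). It was 0.80 among 37 in the PABPN IP (17 high and 11 low), against -1.16 for the 42 in the Input (4 high and 22 low). The median EPKM of the 42 was 0.0723 in the Input, 0.0770 with PABPC and 0.0977 with PABPN. Their TPM was lower in the IPs (H4C2 at 2610, 259 and 167 in the same order). The histone genes were therefore compared there with genes of lower TPM, and the change in relative median is not a like rise in EPKM.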

How the data were processed

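Ribodepleted, stranded RNA-seq libraries were made by the authors from the Input and IPs of both lines. Per the study's methods and the submitters' processing notes, reads were aligned to hg38 with STAR and counted with featureCounts 2.0.2. The authors deposited normalized EPKM, a background-subtracted signal made from edits above a confidence threshold by subtracting Control-STAMP editing from RPS2-STAMP editing, and average TPM per fraction, obtained by adding exonic and intronic TPM. Replicates had been pooled in both, and whether counting used strand is not given in the sources used here. Samples were grouped by their labels, but no column belongs to a single sample.

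Relative editing was log2((EPKM + 0.01)/(median EPKM of the 100 genes on each side in TPM rank + 0.01)), at a minimum TPM of 5. Gene positions, lengths, GC content and overlapping genes were read from GENCODE release 44 (hg38) (9123 of 9132 genes matched by identifier). For 180 genes without a symbol in the table, its name or the identifier was used. The window calculation was tested on simulated data. Python 3.11 tools (NumPy, pandas, SciPy) were used.

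The genes named were the 15 highest by EPKM, the 10 protein-coding genes highest and the 10 (above 0) lowest by relative editing, the 15 most abundant listed at 0, RPS2, the 10 lncRNAs with the highest TPM, and the 2 highest and 2 lowest of each list described, all with a biotype. A few genes that this rule takes in are not reported here. Other genes were chosen after their values were seen. The members and lists were chosen with earlier results of these data known. Alternatives changed the minimum TPM, the window, the pseudocount, the matching and the biotypes.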

Additional observations from a re-analysis of the deposited data

Results flagged for a closer look

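Editing was also listed for genes outside the TPM minimum. Among the 1964 genes with no average TPM, 418 had an Input EPKM above 0, the highest being MIR1244-1 within PTMA (2.29 EPKM), the NME1-NME2 readthrough locus (1.09) and the pseudogene RPL12P16 within NBEAL1 (0.991). Among genes with a TPM below 5, 37 reached the 90th percentile of the measured genes (0.170 EPKM), led by the RPSA pseudogene RPSAP47 (0.949 EPKM at a TPM of 4.39). Both were counted because these genes enter no comparison above, and no replicate value exists to set them against.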

How the results depend on the processing

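No paired analysis was possible because the table holds 1 pooled value per gene and fraction, which also allows no fit without a replicate. The median EPKM was 0.0163 at a minimum TPM of 1, 0.0732 at 20, and the mean over genes was 0.0692. With a pseudocount of 0.1 EPKM, high and low genes were 3.38% and 2.54%. That pseudocount moved the relative medians of mitochondrially encoded (-1.85), short-lived (-0.23) and detained-intron (-0.26) RNAs and processed pseudogenes (0.78), and 0.001 EPKM moved the first 3 to -4.88, -2.21 and -2.28. A minimum TPM of 1 gave short-lived mRNAs -0.43 and processed pseudogenes 0, and 20 gave detained-intron transcripts -2.62 and reversed processed pseudogenes (-0.047). Dividing EPKM by TPM, with the median over all genes as the base in place of genes of like TPM, reversed RPS (-1.09), RPL (-1.19), histone variants (-0.84), elongation factors (-1.24), other TOP mRNAs (-1.18), RPS21 (-0.00016), RPSA (-1.09), UBB (-0.48), TMSB10 (-0.60), CKB (-0.88), RPL8 (-1.75), SNHG29 (-0.10), DANCR (-0.70) and ENSG00000262202 (-0.37), and it moved mitochondrially encoded genes to -6.69 and replication-dependent histones to -3.98. Matching exonic length too reversed initiation factors (0.088), CCT (0.27) and ENSG00000262202 (-0.23), and matching GC content, chosen after seeing the data, reversed elongation factors (-0.042). Apart from division by TPM, the alternatives gave other TOP mRNAs relative medians from 0.023 to 0.63. Of 70 other values, mostly of single genes, GC matching moved 19 by over 1.5-fold, length matching 6, a pseudocount of 0.1 EPKM 39, one of 0.001 EPKM 31 and division by TPM 40, besides those reversed. Of the high and low calls, 90.1% and 91.8% were shared with length matching and 77.1% and 84.7% with GC matching. Windows of 50 or 250 genes on each side, protein-coding genes alone and a window without ribosomal protein, histone and mitochondrial genes (also chosen after seeing the data) moved no list median they could give by over 1.5-fold. The depth behind each value is unknown, so low EPKM and listed 0 cannot be given a counting error.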
